A study of Mus musculus with 6 samples.

Results

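The glycolysis enzymes described here are 10 genes that carry sugar from its entry into the pathway to lactate: Hk1, Hk2, Gpi1, Pfkl, Aldoa, Pgk1, Pgam1, Eno1, Pkm and Ldha. They were chosen by symbol, with earlier results of these data known, and are 10 of the 24110 genes in the deposited table. All 10 were measured in every library and passed the filter on low values. RNA-seq was performed on hematopoietic stem cells, which sit in the marrow and maintain the blood for life. They were sorted from C57BL/6 mice by the markers Lineage-, Sca-1+, CD48- and CD150+. A control group carried the floxed gene (Prmt5 fl/fl) and the other its deletion (Prmt5 KO), both taken on day 7 post induction from animals matched by litter and sex. Each group held 3 independent libraries, and every library pooled the marrow of 2 mice. Prmt5 encodes an arginine methyltransferase that modifies histones and proteins of the splicing machinery. Not given in the sources used here were the inducing agent, the Cre driver, the deleted exons and the age of the mice.

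Glycolysis splits glucose into pyruvate in the cytosol and yields ATP without oxygen. The preparatory steps (hexokinase, phosphoglucose isomerase, phosphofructokinase, aldolase) spend ATP, and the payoff steps (phosphoglycerate kinase, phosphoglycerate mutase, enolase, pyruvate kinase) return it. Lactate dehydrogenase then converts pyruvate to lactate and restores the cofactor the pathway needs. Quiescent hematopoietic stem cells are known to rely on this route, and the hypoxia-inducible factor HIF-1, itself under the control of Meis1 in these cells, is a known activator of many of its genes.

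The libraries held 37834096 to 44704636 reads in genes, and values below are scaled counts, which put every library on the total of Prmt5 fl/fl replicate 2. The targeted gene, Prmt5 (chr14:54507187-54517525 of mm10), was at 6076, 6024 and 6010 scaled counts in the fl/fl libraries and at 1056, 1049 and 897 in the KO libraries. It fell by 2.60 on the log2 scale (limma adjusted p = 6.18e-04), the direction the labels give. Its log2 difference was -2.51, with an adjusted p of 0.0990, without the 2 libraries richest in the myeloid markers described next. Genes of the sorted cells were present throughout, with Kit between 19323 and 56475, Slamf1 (CD150) between 2731 and 4489 and Procr between 2334 and 4151 scaled counts, against 446 to 757 for Cd48. Of the other 3 genes listed as low in long-term stem cells, Cd34 was at 9228 to 13311, Flt3 at 473 to 1792 and Il7r at 0 to 43.7 scaled counts, so Cd34 RNA was not low in these libraries. Markers of other cells varied between libraries. All 9 granulocyte and monocyte markers were above 0 and summed to 57208 to 201881 in the fl/fl and 63244 to 546193 in the KO libraries. The highest sums were those of Prmt5 KO replicate 3, where S100a8 was at 153117 and Lyz2 at 150277, and of Prmt5 fl/fl replicate 1. Of 12 red cell markers 8 were above 0, summing to 3310 to 9610 in the fl/fl and 2111 to 2571 in the KO libraries, while the globin genes Hba-a1, Hba-a2, Hbb-bs and Hbb-bt were listed at 0. The 11 megakaryocyte and platelet markers, all above 0, summed to 77929 to 91551 in the fl/fl and 34066 to 63862 in the KO libraries. Both the red cell sum and the platelet sum were thus lower in every KO library. Single markers overlapped between the groups, both of platelets (Pf4, Ppbp, Gp9, Itgb3 and Vwf) and of red cells (Epor, Slc4a1 and Ermap). Epor, the largest part of the red cell sum in each KO library, was at 1546 to 1976 there and at 1803 to 2979 in the fl/fl libraries. Ppbp was highest in Prmt5 KO replicate 1, at 5036 scaled counts. The part of such cells in the results below was not tested. Prmt5 fl/fl replicate 3 stood apart by gene length: across genes, the deviation of a library from its group correlated with gene length at a Spearman rho of -0.574 there, against 0.450 and 0.485 in the other fl/fl libraries and -0.260 to 0.191 in the KO libraries. The 10 markers of cycling cells, all above 0, summed to 94023 to 113387 in the fl/fl and 93140 to 101973 in the KO libraries. Whether the sorted cells were quiescent was not tested. In such bulk samples fewer cells of a type and less RNA per cell cannot be told apart.

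Because HIF-1 binds the core motifs ACGTG and GCGTG, the 250 bases before the start site of each gene were searched on both strands, using RefSeq promoters of GRCm38.p6 (the assembly of mm10). All 10 genes matched a RefSeq entry. Hk1, Aldoa, Eno1, Pkm and Ldha have more than 1 window, and the one nearest the start of the GENCODE locus was used. The windows of Gpi1, Pfkl, Aldoa and Pkm overlap annotated exons over 167, 53, 193 and 208 bases. ACGTG was found for 4 of 10 (Hk2, Pgk1, Pgam1, Ldha) and GCGTG for 3 of 10 (Pfkl, Pgam1, Eno1). At least 1 of the motifs was found for 6 of 10. Over all 32851 RefSeq windows of the same length, 16.6% held ACGTG, 28.2% held GCGTG and 38.6% held at least 1 of them. The windows of the 4 genes with ACGTG are shown because they hold the motif of the pathway's known activator. Capitals mark both motifs on either strand, and each sequence runs 5′ to 3′ on the strand of its gene up to the base before the start site.
Hk2, chr6:82774455-82774704, minus strand: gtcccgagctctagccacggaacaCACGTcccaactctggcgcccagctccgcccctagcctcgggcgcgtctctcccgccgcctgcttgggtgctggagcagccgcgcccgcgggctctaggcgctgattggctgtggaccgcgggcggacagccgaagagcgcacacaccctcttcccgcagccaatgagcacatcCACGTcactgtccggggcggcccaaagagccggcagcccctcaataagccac
Pgk1, chrX:106186850-106187099, plus strand: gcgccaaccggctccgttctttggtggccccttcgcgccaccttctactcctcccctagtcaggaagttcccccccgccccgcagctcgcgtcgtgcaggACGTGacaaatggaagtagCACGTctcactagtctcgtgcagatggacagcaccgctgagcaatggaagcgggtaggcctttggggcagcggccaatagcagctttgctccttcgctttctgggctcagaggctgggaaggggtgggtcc
Pgam1, chr19:41911621-41911870, plus strand: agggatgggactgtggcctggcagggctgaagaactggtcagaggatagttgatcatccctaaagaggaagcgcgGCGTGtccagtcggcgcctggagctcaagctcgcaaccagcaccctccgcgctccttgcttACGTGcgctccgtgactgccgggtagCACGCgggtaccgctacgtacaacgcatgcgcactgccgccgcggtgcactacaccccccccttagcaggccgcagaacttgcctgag
Ldha, chr7:46845554-46845803, plus strand: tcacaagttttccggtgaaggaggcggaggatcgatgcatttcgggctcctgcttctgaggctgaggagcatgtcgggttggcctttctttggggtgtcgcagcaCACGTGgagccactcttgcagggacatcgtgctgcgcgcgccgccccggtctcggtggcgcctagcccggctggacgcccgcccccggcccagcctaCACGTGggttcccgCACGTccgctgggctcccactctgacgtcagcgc
In Hk2 the motif ACGTG lies on the opposite strand at 226 and 52 bases before the start. In Pgk1 it lies at 150 bases on the strand of the gene and at 131 bases on the other. In Pgam1 it lies at 114 bases, with GCGTG at 175 bases and, on the opposite strand, at 88 bases. Ldha held 5 matches, of which 2 pairs are the palindrome CACGTG read on both strands, which is also the E-box bound by MYC and related factors. The Ldha window is 1 of 2 RefSeq windows of that gene, and its start site lies 4329 bases downstream of the start of the GENCODE locus. A match describes these letters only, and neither binding nor activity of a factor was measured.

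Levels between the 10 genes can be compared per kilobase of the gene length in the table. The 10 genes spanned more than 2 orders of magnitude, with Ldha and Pkm at the top, but their levels did not follow the order of the steps. Ldha had the highest level, 35259 to 47759 scaled counts per kb over the 6 libraries, in the percentile 99.8 of the 14113 tested genes. Pkm followed at 17931 to 26083, then Aldoa at 12487 to 15699 and Gpi1 at 6893 to 9626 scaled counts per kb. These 4 did not overlap one another in range. Pgk1 (4582 to 6198 scaled counts per kb) and Hk1 (3644 to 5269) overlapped, and Pgk1 was above Hk1 in 5 of 6 libraries. The range of Hk1 also overlapped that of Pfkl (2975 to 3861), although Hk1 was the higher in each of the 6 libraries. Pgam1 stood below them at 1532 to 2488 scaled counts per kb, in percentile 82.5. Hk2 (103 to 325) and Eno1 (73.8 to 161) were the lowest, overlapped each other, and lay in percentiles 35.8 and 26.3 of all tested genes.

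**Figure D1:**
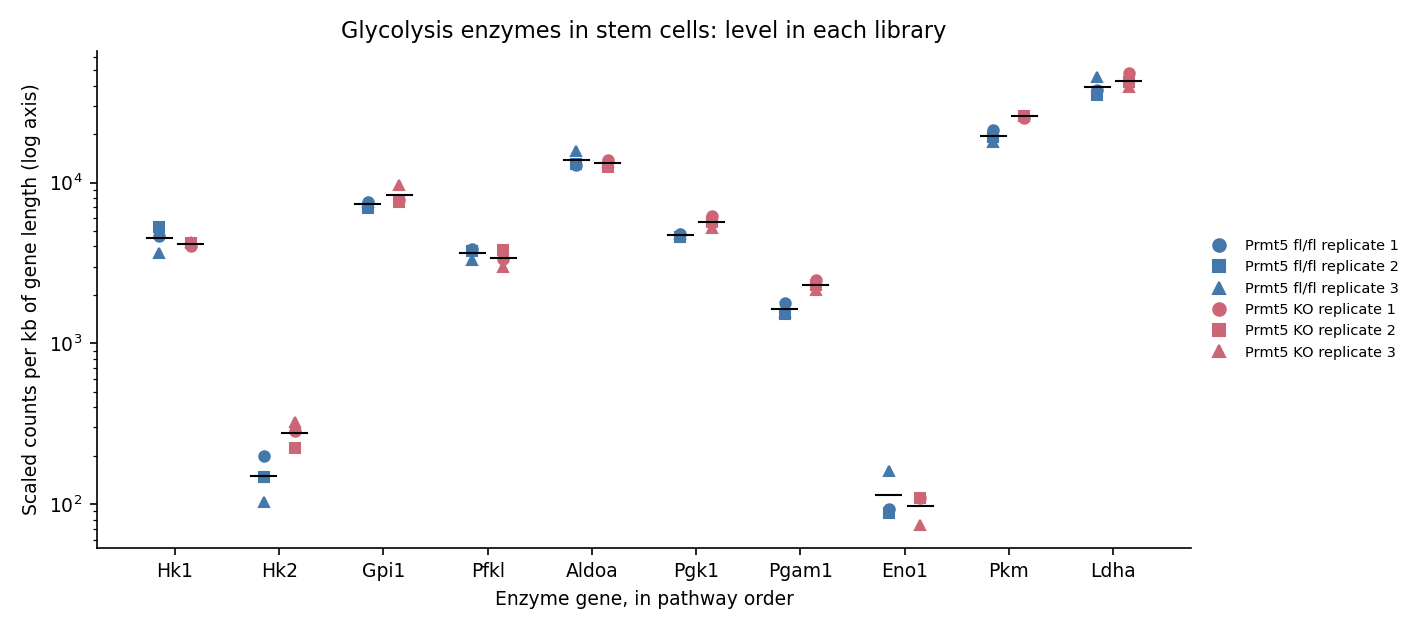
Level of each glycolysis enzyme gene in the 6 libraries, in scaled counts per kb of gene length on a log axis, in pathway order. Points are libraries and black lines are group means; the KO points of Hk2, Pgk1, Pgam1 and Pkm all lie above the fl/fl points, and those of the other 6 genes overlap.

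Loss of Prmt5 was accompanied by no change of a glycolysis enzyme that passed the test. With limma on log2(scaled count + 1) and Benjamini-Hochberg adjustment over all tested genes, 0 of 10 were called at 0.05, where 0.73% of all genes were called. At an unadjusted p below 0.05 there were 3 of 10 (Hk2, Pgam1, Pkm), all higher in the KO group, against 18.2% of all genes, 4.58% higher and 13.6% lower. The groups did not overlap for 4 of 10 (these 3 and Pgk1), again all higher in the KO group, against 28.2% of all genes, 8.3% higher and 19.9% lower. edgeR's quasi-likelihood test on the recovered reads called 0 of 10, where it called 0.425% of all genes. At an unadjusted p below 0.05 it had 4 of 10, against 2451 of the 14113 genes tested. DESeq2 called 3 of 10, Hk2, Pgam1 and Pkm, all higher, where it called 2.64% of all genes as higher and 7.1% in either direction. The log2 fold change of the 10 genes had a median of 0.15 (range -0.19 to 0.93), beside a median of -0.048 over all genes tested, with 6 above 0 and 4 below. Other scalings moved both medians, to 0.24 and 0.039 with size factors by the median of ratios and to 0.30 and 0.025 with the length trend of each library removed.

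The preparatory steps begin with the hexokinases, which trap glucose in the cell as glucose 6-phosphate. Hk2 (chr6:82725025-82774454, minus strand) encodes the inducible form, which binds mitochondria and is a known HIF-1 target. In the order of the replicate numbers, its scaled counts were 1103, 807 and 566 in the fl/fl libraries and 1576, 1236 and 1791 in the KO libraries. The groups did not overlap, and the lowest KO library stood next to the highest fl/fl library. Group means were 825 ± 269 and 1534 ± 280 (SD, n = 3 each), with a log2 difference of 0.93 with a standard error of 0.27 and a 95% interval from 0.30 to 1.56. The unadjusted p from limma was 0.00956 and the adjusted p 0.138, so the difference was not called, while DESeq2 gave an adjusted p of 0.0167. Without Prmt5 KO replicate 3, rich in granulocyte markers, the log2 difference was 0.81, and without Prmt5 fl/fl replicate 3 it was 0.68 (limma adjusted p = 0.373 and 0.106).

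Hk1 (chr10:62268855-62379908, minus strand) encodes the constitutive hexokinase of most tissues and was the main one here. Its levels were 21024, 23758 and 16431 scaled counts in the fl/fl and 18174, 18920 and 19130 in the KO libraries. The KO values lay inside the range of the fl/fl values, whose lowest was Prmt5 fl/fl replicate 3. The log2 difference was -0.11, with a 95% interval from -0.46 to 0.24 (limma adjusted p = 0.734), which excludes a difference as large as the estimate for Hk2. Gpi1 (chr7:34201330-34230336, minus strand) encodes the isomerase that turns glucose 6-phosphate into fructose 6-phosphate. Its counts of 21951, 19900 and 21975 in the fl/fl and 22388, 21948 and 27791 in the KO libraries overlapped, with Prmt5 KO replicate 3 the highest. The log2 difference of Gpi1 was 0.17 (95% interval -0.13 to 0.47, limma adjusted p = 0.517) and 0.061 without Prmt5 KO replicate 3. The exons of Gpi1 overlap those of Gm26762 on the opposite strand over 741 bases, and a library that does not mark strand cannot separate the reads of that stretch.

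Pfkl (chr10:77986947-78010083, minus strand) encodes the liver-type subunit of phosphofructokinase, the committed and most regulated step. It was measured at 14353, 13992 and 12328 scaled counts in the fl/fl libraries and 12514, 14219 and 11058 in the KO libraries. The groups overlapped, and the lowest value of each group was its replicate 3. Its log2 difference was -0.11 (95% interval -0.42 to 0.20, limma adjusted p = 0.686). Aldoa (chr7:126795234-126800751, minus strand) encodes the aldolase that splits the phosphorylated hexose into a pair of trioses. Counts of Aldoa were 23333, 23893 and 28635 in the fl/fl libraries and 25125, 22776 and 24575 in the KO libraries. The groups overlapped, with Prmt5 fl/fl replicate 3 above all others. The log2 difference of -0.061 (95% interval -0.34 to 0.22, limma adjusted p = 0.818) had no stable sign: size factors by the median of ratios gave 0.026, and the value was 0.032 without Prmt5 fl/fl replicate 3.

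Among the payoff steps, Pgk1 (chrX:106187100-106203699, plus strand) encodes the kinase of the first ATP-yielding reaction. It was at 8688, 8362 and 8785 scaled counts in the fl/fl and 11311, 10374 and 9456 in the KO libraries. All 3 KO libraries lay above the fl/fl libraries, which were close together. They averaged 8611 ± 221 and 10381 ± 928 (SD, n = 3 each), and the log2 difference was 0.27 with a 95% interval from -0.0014 to 0.53 (limma unadjusted p = 0.0509, adjusted p = 0.277). Pgam1 (chr19:41911923-41918660, plus strand) encodes the mutase that moves the phosphate of 3-phosphoglycerate. Its counts were 3251, 2806 and 2887 in the fl/fl and 4559, 4217 and 3931 in the KO libraries, with a gap between the groups. The means of 2981 ± 237 and 4236 ± 314 (SD, n = 3 each) differed by 0.51 on the log2 scale, a 1.42-fold higher level in the KO group. The standard error was 0.13, the 95% interval 0.21 to 0.81, the limma adjusted p 0.108 (unadjusted 0.00477) and the DESeq2 adjusted p 0.00353.

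Pkm (chr9:59656368-59679375, plus strand) encodes the muscle-type pyruvate kinase, whose M1 and M2 forms arise by alternative splicing of mutually exclusive exons. The table holds a total per gene, so these forms were not analysed here. Counts of Pkm were 54889, 50135 and 46603 in the fl/fl and 65625, 67757 and 67788 in the KO libraries. The KO libraries lay close together and all above the fl/fl libraries. Group means were 50542 ± 4158 and 67057 ± 1240 (SD, n = 3 each), 1.33-fold apart, with a log2 difference of 0.41, a standard error of 0.11 and a 95% interval from 0.16 to 0.66. The limma adjusted p was 0.111 (unadjusted 0.00528), and DESeq2 gave an adjusted p of 0.00837. The exons of Pkm overlap those of Gm49759 on the same strand over 767 bases, 15.3% of its exonic bases.

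Ldha (chr7:46841475-46855627, plus strand) encodes the A subunit of lactate dehydrogenase, the form that favours lactate production. Its counts were 72928, 68050 and 87260 in the fl/fl libraries and 92174, 81451 and 75681 in the KO libraries. The groups overlapped, with Prmt5 fl/fl replicate 3 above 2 of the 3 KO libraries. The log2 difference was 0.13 (95% interval -0.19 to 0.45, limma adjusted p = 0.637). Eno1 (chr4:150236721-150248879, plus strand) encodes the ubiquitous enolase, which makes phosphoenolpyruvate. It was listed at 166, 156 and 286 scaled counts in the fl/fl and 195, 194 and 131 in the KO libraries, from 111 to 270 reads. The groups overlapped and the log2 difference was -0.19 with a wide 95% interval, from -0.94 to 0.55 (limma adjusted p = 0.779).

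**Figure D2:**
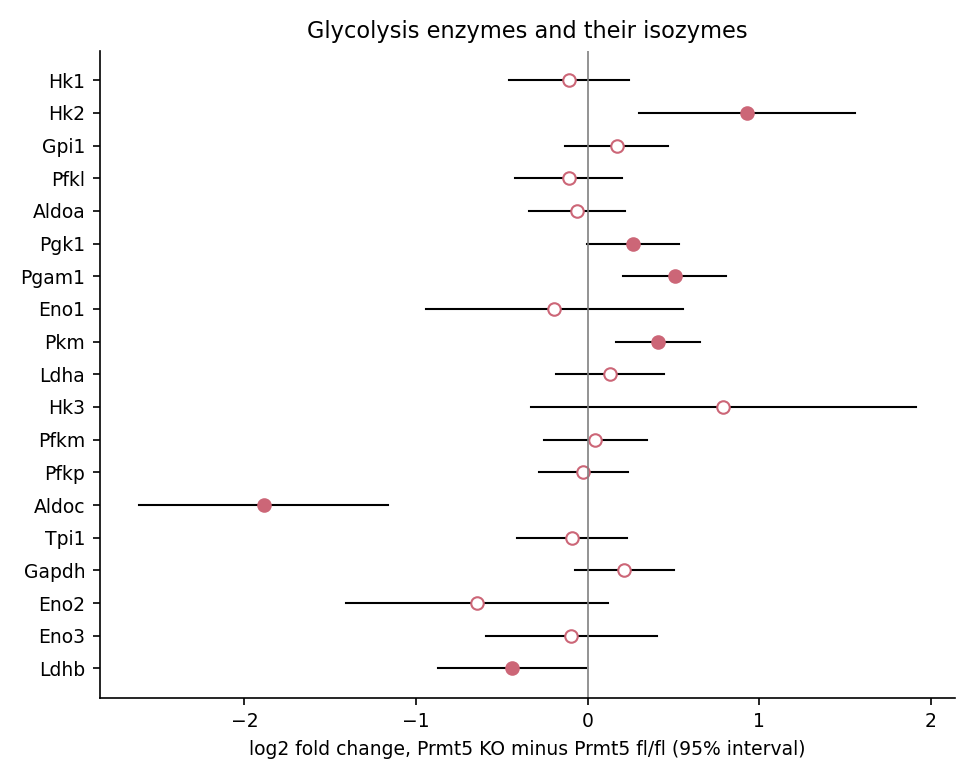
Log2 fold change of the 10 glycolysis enzymes (top) and of 9 other enzymes and isozymes of the pathway (below), Prmt5 KO minus Prmt5 fl/fl, with 95% intervals from limma. Filled points mark genes whose groups do not overlap: Hk2, Pgk1, Pgam1 and Pkm lie above 0, and Aldoc and Ldhb below.

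Summed over the 10 genes, the level per kb was 94654, 89923 and 100068 in the fl/fl libraries and 111018, 104704 and 103338 in the KO libraries. All KO libraries were above all fl/fl libraries, although Prmt5 fl/fl replicate 3 and Prmt5 KO replicate 3 were close. Per group this came to 94881 ± 5076 and 106353 ± 4097 scaled counts per kb (SD, n = 3 each), 0.16 apart on the log2 scale. As a share of all reads in genes, the 10 enzymes took 0.496%, 0.474% and 0.505% in the fl/fl and 0.567%, 0.544% and 0.540% in the KO libraries. Ldha and Pkm alone made up 60.7% to 63.1% of the sum per kb in the fl/fl and 63.2% to 65.8% in the KO libraries, so the sum mainly follows these 2 genes. No p is given for these sums.

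The genes that varied most like the mean of the 10 enzymes were found by the root mean square difference of centred log2 values over the 6 libraries, among 7780 candidates. Smarce1, a subunit of the BAF chromatin remodelling complex, was the closest at 0.013, with 6878, 6370 and 6663 scaled counts in the fl/fl and 7797, 7466 and 7487 in the KO libraries. Hnrnpa0, an RNA-binding protein, followed at 0.026. Bzw1 stood at 0.033, the threonyl-tRNA synthetase gene Tars at 0.034 and Rtn4ip1 at 0.036. These distances rest on 6 libraries and describe likeness only.

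Most reactions of the pathway have several genes, and the share of each, from scaled counts per kb within a library, does not depend on library size. Of 12 shares tested by an exact two-sided permutation test over libraries, whose smallest possible p with 3 against 3 is 0.1, none was below 0.3 after Benjamini-Hochberg adjustment, and this design could not have reached 0.05. Hk2 took 3.51%, 2.50% and 2.53% of the hexokinase level in the fl/fl and 5.79%, 4.47% and 5.24% in the KO libraries. The groups did not overlap, with means of 2.84% ± 0.573 and 5.17% ± 0.663 (SD, n = 3 each, exact permutation p = 0.1, adjusted 0.3). The ratio of Hk1 to Hk2 per kb was 23.3, 36.0 and 35.5 in the fl/fl and 14.1, 18.7 and 13.1 in the KO libraries. Hk3, a hexokinase abundant in myeloid cells, took 14.8%, 7.56% and 7.66% in the fl/fl and 12.6%, 11.9% and 26.3% in the KO libraries. Its highest shares were in the libraries with the most granulocyte and monocyte markers, Prmt5 KO replicate 3 and Prmt5 fl/fl replicate 1, and the part of such cells in the Hk3 values was not tested. The counts of Hk3 were 2769, 1447 and 1016 in the fl/fl and 2034, 1946 and 5333 in the KO libraries (log2 difference 0.79, limma adjusted p = 0.428).

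Aldoc, the aldolase best known from brain, had the smallest p of the isozymes. Its counts were 500, 732 and 1064 in the fl/fl and 190, 245 and 163 in the KO libraries, so every KO library was below every fl/fl library. The means were 765 ± 284 and 199 ± 41.7 (SD, n = 3 each) and the log2 difference was -1.89, with a standard error of 0.31 and a 95% interval from -2.62 to -1.16. Its limma adjusted p was 0.0518, just outside the threshold. It was 0.0376 without Prmt5 fl/fl replicate 3, the library with the highest Aldoc count, 3.22e-06 with DESeq2 and 0.0665 with edgeR. Over 17 alternatives it ranged up to 0.317, the value without the 2 libraries richest in myeloid markers, and it was 0.201 without Prmt5 KO replicate 3. Aldoa accordingly made up 96.2% to 97.8% of the aldolase level in the fl/fl and 98.9% to 99.3% in the KO libraries (exact permutation p = 0.1, adjusted 0.3).

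Lactate dehydrogenase is a tetramer of the A subunit and of the B subunit encoded by Ldhb, which favours the oxidation of lactate. Ldhb was at 4718, 5231 and 7531 scaled counts in the fl/fl and 4225, 4381 and 4016 in the KO libraries. The KO group lay below the fl/fl group, with a log2 difference of -0.44 (limma adjusted p = 0.267). It was -0.24 without Prmt5 fl/fl replicate 3, the library with the highest Ldhb count, and -0.23 with the length trend of each library removed. Ldhb took 8.82%, 10.3% and 11.4% of the lactate dehydrogenase level in the fl/fl and 6.42%, 7.45% and 7.36% in the KO libraries. The ratio of Ldha to Ldhb per kb was 10.3, 8.70 and 7.74 in the fl/fl and 14.6, 12.4 and 12.6 in the KO libraries, again with no overlap (the share of Ldha had an exact permutation p of 0.1, adjusted 0.3). Pkm made up 99.46% to 99.99% of the pyruvate kinase level in the fl/fl libraries and a mean of 99.995% in the KO libraries. The rest was Pklr, the red cell and liver form, at 319, 7 and 29.7 scaled counts in the fl/fl and 4.73, 1.07 and 4.73 in the KO libraries (log2 difference -3.39, limma adjusted p = 0.228). Its highest value was in Prmt5 fl/fl replicate 1, which also had the highest level of 7 of the 8 detected red cell markers, Pklr among them.

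**Figure D3:**
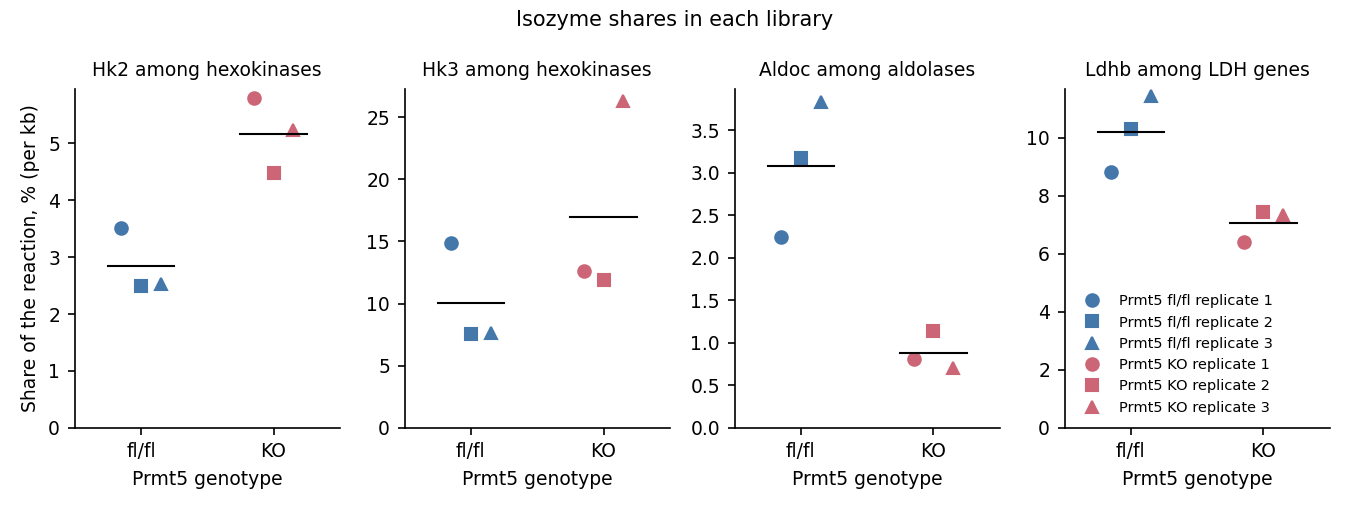
Share of Hk2 and Hk3 in the hexokinase, Aldoc in the aldolase and Ldhb in the lactate dehydrogenase level (percent, from scaled counts per kb), with libraries as points and group means as lines. Hk2 shares are higher in all KO libraries, Aldoc and Ldhb shares are lower, and the Hk3 shares overlap because of Prmt5 fl/fl replicate 1 at 14.8%.

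Of 17 other glycolysis genes, 14 passed the filter and 0 were called by limma or by edgeR, with 5 at an unadjusted p below 0.05 in limma, 1 higher and 4 lower, where 4.58% of all genes were higher and 13.6% lower. DESeq2 called 3, where it called 7.1% of all genes: Pgam2 higher, and Aldoc and Pklr lower. Their median log2 difference was -0.094. The other 2 steps of the main route are triose phosphate isomerase (Tpi1) and glyceraldehyde 3-phosphate dehydrogenase (Gapdh). Tpi1 was at 27056, 26666 and 31193 scaled counts in the fl/fl and 27711, 29570 and 22630 in the KO libraries (log2 difference -0.093, limma adjusted p = 0.747). Gapdh was at 61236, 55473 and 66303 in the fl/fl and 77951, 70652 and 63853 in the KO libraries (log2 difference 0.21, adjusted p = 0.404). Both overlapped between the groups, and Gapdh ranked with Ldha among the most abundant steps, at means of 40778 and 47339 scaled counts per kb. Pgam2, the muscle mutase, was low, at 58.7, 31 and 14.8 in the fl/fl and 131, 107 and 181 in the KO libraries, with no overlap (log2 difference 2.14, limma adjusted p = 0.103, DESeq2 adjusted p = 0.00584).

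The other phosphofructokinase genes showed little difference. Pfkm had means of 3505 ± 289 and 3613 ± 278 scaled counts and Pfkp of 6526 ± 339 and 6409 ± 304 (SD, n = 3 each), with log2 differences of 0.044 and -0.026 and adjusted p of 0.879 and 0.922 from limma. The sign of both flipped under other settings, that of Pfkp with median-of-ratios size factors (0.061) and that of Pfkm without Prmt5 KO replicate 2 (-0.018). Pfkl made up 55.3% to 59.3% of the phosphofructokinase level in the fl/fl and 53.2% to 57.7% in the KO libraries (exact permutation p = 0.4). The neuronal enolase Eno2 (log2 difference -0.64, limma adjusted p = 0.352) and the muscle enolase Eno3 (-0.094, adjusted p = 0.840) overlapped between the groups. The sign of Eno3 flipped with quantile normalization (0.0024). The sperm-type Gapdhs did not overlap, with 317 ± 89.5 and 185 ± 26.9 scaled counts (SD, n = 3 each) and a log2 difference of -0.74 (adjusted p = 0.216). Hkdc1 and Pgk2 did not pass the filter, with at most 11.8 and 0 scaled counts in a library. Ldhc, the testis form, was at most 15.2 scaled counts except for 239 in Prmt5 KO replicate 3.

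Gene length moved with the level of these enzymes in single libraries, and the 10 genes range from 1776 (Eno1) to 5511 bases (Hk2). In Prmt5 fl/fl replicate 3 the shortest, Eno1, was 0.83 above the mean of the other fl/fl libraries on the log2 scale, and the longest, Hk2, 0.74 below it (a difference of -0.74). Ldha and Aldoa were 0.31 and 0.28 above and Hk1 was at -0.44. Across the 10 genes, which share their library, Pearson's r with log2 length was -0.83 and Spearman's rho -0.83. The other fl/fl libraries had the opposite sign, with r of 0.73 and 0.72 for replicates 1 and 2, as each was compared with a mean that includes replicate 3. In the KO group r was -0.61, -0.36 and 0.58 for replicates 1 to 3. After the length trend of each library was removed by a smooth curve, an alternative added after the data were seen, limma called 2 of 10, Pgam1 (log2 difference 0.71, adjusted p = 0.0431) and Pkm (0.54, adjusted p = 0.0405), where it called 3.33% of all genes in either direction and 1.64% as higher. On that scale Hk2 was at 0.82 (adjusted p = 0.0652), Pgk1 at 0.47 (adjusted p = 0.0539) and Ldha at 0.32 (adjusted p = 0.0816). The part of gene length in the differences was not tested beyond these values.

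**Figure D4:**
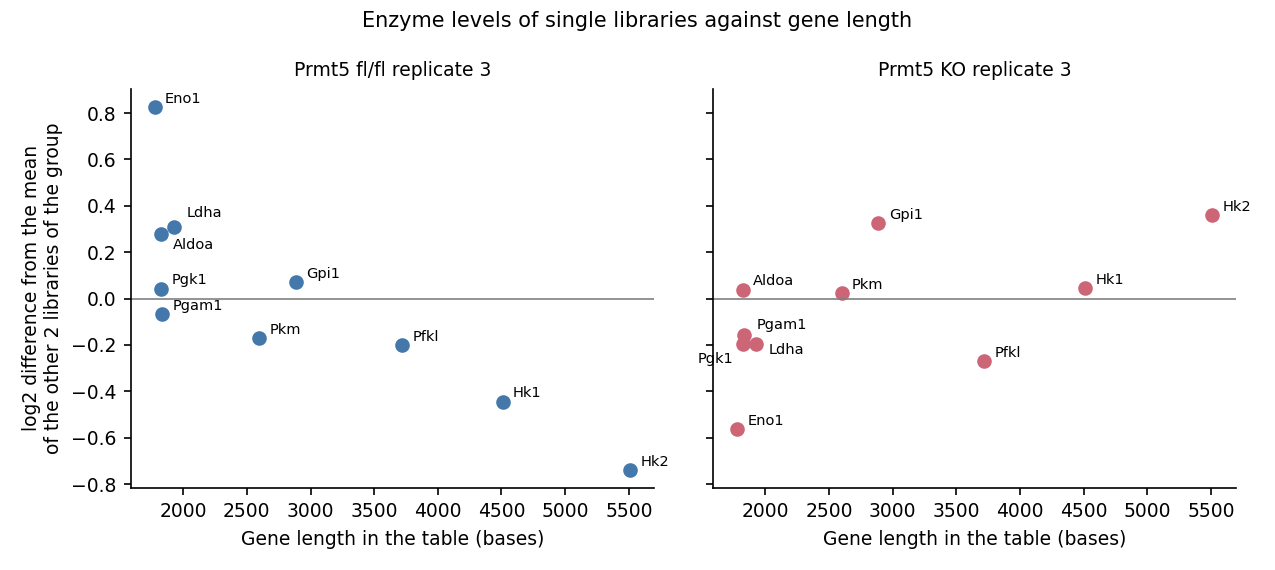
Log2 difference of each glycolysis enzyme from the mean of the other 2 libraries of its group against the gene length in the table, for Prmt5 fl/fl replicate 3 and Prmt5 KO replicate 3. In the first, values descend from Eno1 (0.83) to Hk2 (-0.74); in the second the short genes Eno1, Pgk1, Pgam1 and Ldha lie below 0 and Hk2 lies above.

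The differences of Hk2, Pgam1 and Pkm were also fitted without the libraries that had the most granulocyte and monocyte markers. Their log2 differences were 0.81, 0.56 and 0.40 without Prmt5 KO replicate 3 alone. Without Prmt5 fl/fl replicate 1 alone they were 1.17, 0.57 and 0.47. With Prmt5 fl/fl replicate 1 and Prmt5 KO replicate 3 both left out, a choice made after the data were seen, their log2 differences were 1.05, 0.62 and 0.46 and their unadjusted p 0.0118, 0.0188 and 0.0190. Limma then called 0 genes of the whole table after adjustment, with 1484 at an unadjusted p below 0.05. Pgk1 was at 0.34 and Ldha at 0.17 in the same fit. Prmt5 fl/fl replicate 1 held the highest fl/fl count of Hk2, Pgam1 and Pkm, so leaving it out lowers their fl/fl means. The part of myeloid cells in these differences was not tested. The sign of the log2 difference was the same in 17 of 17 alternatives for Hk2, Gpi1, Pgk1, Pgam1, Pkm and Ldha, in 16 for Hk1 and Pfkl, in 15 for Eno1 and in 13 for Aldoa.

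Several of these genes have near-identical copies elsewhere in the genome, and the sources used here do not say how reads that map to several places were counted. In the longest coding transcript of Eno1 in GENCODE M21, 72.2% of windows of 50 bases also occur in transcripts of other genes, most of them in Eno1b (70.5%). The figure was 68.0% for Pgk1, nearly all shared with Pgk1-rs7, 41.5% for Pgam1, shared with Pgam1-ps2, and 34.4% for Pkm. It was 25.3% for Gpi1, 16.6% for Ldha, 13.5% for Aldoa, 2.55% for Hk1, 0.054% for Pfkl and 0 for Hk2. Among other genes of the pathway it was 82.5% for Gapdh, 27.0% for Ldhb and 17.1% for Pfkp. With windows of 100 bases Eno1 kept 59.0%, Pgk1 67.0% and Pgam1 39.7%, while Pkm was at 9.82% and Aldoa at 0. The low level of Eno1 therefore counts as uncertain, as do the levels of Pgk1, Pgam1 and Gapdh, and the part of shared sequence in them was not tested. Eno1b itself was at 105, 90 and 105 scaled counts in the fl/fl and 103, 71.6 and 89.8 in the KO libraries (log2 difference -0.19, limma adjusted p = 0.743). Of the other copies, Aldoart1 averaged 44.0 and 41.4, Aldoart2 9.90 and 10.3 and Ldhal6b 27.8 and 8.63 scaled counts in the fl/fl and KO groups, and limma called 0 of these 4 copies, with 0 at an unadjusted p below 0.05 and 0 called by edgeR or DESeq2.

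Genes that control entry into and exit from glycolysis were examined as fixed lists. Among 12 tested regulators of flux limma and edgeR called 0 and DESeq2 called Txnip, and 3 had an unadjusted limma p below 0.05, all lower in the KO group, where 13.6% of all genes were lower and 4.58% higher. Txnip, an inhibitor of glucose uptake that responds to sugar, was at 21572, 34454 and 29018 scaled counts in the fl/fl and 15984, 19819 and 15805 in the KO libraries. The groups did not overlap, and the log2 difference was -0.70 (limma adjusted p = 0.120, DESeq2 adjusted p = 0.0450). Pgm1, a phosphoglucomutase that links glycogen to glycolysis, had means of 4036 ± 264 and 3114 ± 117 (SD, n = 3 each, log2 difference -0.37, limma adjusted p = 0.169). Bpgm, which makes 2,3-bisphosphoglycerate, had means of 1566 ± 318 and 1054 ± 24.96 (log2 difference -0.55, limma adjusted p = 0.172). The median log2 difference of this list was -0.12.

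Of 8 tested transporters of glucose and lactate, limma and edgeR called 0 and DESeq2 called Slc2a8, with 1 higher and 1 lower at an unadjusted limma p below 0.05, against 18.2% of all genes in either direction and 7.1% called by DESeq2. Slc2a8 (GLUT8), a transporter of intracellular membranes, was at 867, 872 and 913 scaled counts in the fl/fl and 470, 489 and 442 in the KO libraries. Its groups were far apart relative to their spread, with a log2 difference of -0.92, a standard error of 0.15 and a limma adjusted p of 0.0531. That p was 0.0364 without Prmt5 fl/fl replicate 3, 5.64e-05 with DESeq2 and 0.0719 with edgeR. It was 0.206 without Prmt5 KO replicate 3, and ranged up to 0.360 over the 17 alternatives. Slc2a3 (GLUT3), a high-affinity glucose carrier, was at 9424, 8696 and 6737 in the fl/fl and 11775, 9246 and 14515 in the KO libraries. The groups of Slc2a3 overlapped, with a log2 difference of 0.51 (limma adjusted p = 0.242) and the highest value in Prmt5 KO replicate 3. Slc2a1 (GLUT1), named after its values were seen, had means of 2976 ± 382 and 2665 ± 186 (SD, n = 3 each, adjusted p = 0.605). Slc16a7, a carrier of lactate and pyruvate, had a log2 difference of -0.37 (adjusted p = 0.382).

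Pyruvate enters mitochondria through the carrier Mpc1 and Mpc2 and is oxidized by pyruvate dehydrogenase, which PDK kinases switch off and PDP phosphatases switch on. Of 14 genes of this step limma and edgeR called 0 and DESeq2 called 2, Pdk2 and Pdp1, the same 2 that had an unadjusted limma p below 0.05. Over all genes, DESeq2 called 7.1% and 18.2% had such an unadjusted p, so the counts of this list are near the background. Pdk2 was at 1338, 1564 and 2043 scaled counts in the fl/fl and 820, 921 and 813 in the KO libraries (log2 difference -0.93, limma adjusted p = 0.0724, DESeq2 adjusted p = 0.00258). Its KO values were all below its fl/fl values. Pdp1 was at 1526, 1353 and 1313 in the fl/fl and 2507, 2174 and 1995 in the KO libraries (log2 difference 0.67, limma adjusted p = 0.0851, DESeq2 adjusted p = 6.67e-04). Here every KO library was above every fl/fl library. Pdp2, the other phosphatase, had lower values in the KO libraries with no overlap (log2 difference -0.31, limma adjusted p = 0.358), and the list as a whole had a median log2 difference of 0.025.

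The pentose phosphate pathway branches off at glucose 6-phosphate and makes NADPH and ribose. None of its 8 tested genes was called by limma, edgeR or DESeq2, and 0 had an unadjusted limma p below 0.05. Pgd, the second NADPH-producing enzyme, was at 6733, 4987 and 3443 scaled counts in the fl/fl and 6167, 5833 and 9595 in the KO libraries (log2 difference 0.53, adjusted p = 0.376). Rpia had a log2 difference of -0.27 and Rpe, whose groups did not overlap, one of 0.14 (adjusted p = 0.535 and 0.568). The list's median was 0.056.

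The HIF pathway was read through 10 regulators and 13 tested targets outside glycolysis. No regulator passed the adjusted threshold in limma, edgeR or DESeq2. An unadjusted limma p below 0.05 was seen for 2 of the 10 (1 higher, 1 lower), against 18.2% of all genes (4.58% higher, 13.6% lower). Groups lay apart for 3 of the 10 (2 higher, 1 lower), against 28.2% of all genes (8.3% higher, 19.9% lower). Both counts are thus near the background. Across the regulators the log2 difference had a median of 0.30. Meis1 had means of 20836 ± 2399 and 15800 ± 1844 scaled counts (SD, n = 3 each, log2 difference -0.40, limma adjusted p = 0.193) with no overlap between the groups. The prolyl hydroxylase genes Egln3 and Egln1, whose products mark HIF for degradation, had log2 differences of 0.58 and 0.45 (adjusted p = 0.225 and 0.320), both with no overlap. Hif1a itself, named after its values were seen, overlapped between the groups at 4443 ± 745 and 5257 ± 473 (adjusted p = 0.448).

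Of the 13 HIF targets limma and edgeR called 0, and the median log2 difference was -0.31. At an unadjusted limma p below 0.05, 1 was higher and 5 lower, where 4.58% of all genes were higher and 13.6% lower. The same counts held for groups without overlap, where 8.3% of all genes were higher and 19.9% lower. Ndrg1, a hypoxia- and stress-responsive gene, was at 3849, 5191 and 5595 scaled counts in the fl/fl and 3124, 2703 and 2659 in the KO libraries (log2 difference -0.77, limma adjusted p = 0.0846, DESeq2 adjusted p = 0.0122). Bnip3, a mitophagy receptor, had means of 1938 ± 477 and 1224 ± 108 (log2 difference -0.64, adjusted p = 0.157). Ddit4, an mTOR inhibitor that is also a stress and p53 target, had means of 251 ± 87.9 and 541 ± 163 (log2 difference 1.14, limma adjusted p = 0.158). DESeq2 called Ddit4 and Ndrg1 of this list, where it called 7.1% of all genes. The other 3 lower ones, named after their values were seen, were Bnip3l (log2 difference -0.50), the carbonic anhydrase gene Car9 (-0.66) and the MYC antagonist Mxi1 (-0.46), with limma adjusted p of 0.174, 0.159 and 0.234. Within these fits, 4 of the 10 glycolysis enzymes had no overlap, all higher in the KO group. Of the 14 other glycolysis genes tested, 1 was higher and 4 were lower without overlap. The 13 HIF targets had 1 higher and 5 lower, where more of all genes were lower (19.9%) than higher (8.3%). The difference between the lists was not tested.

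**Figure D5:**
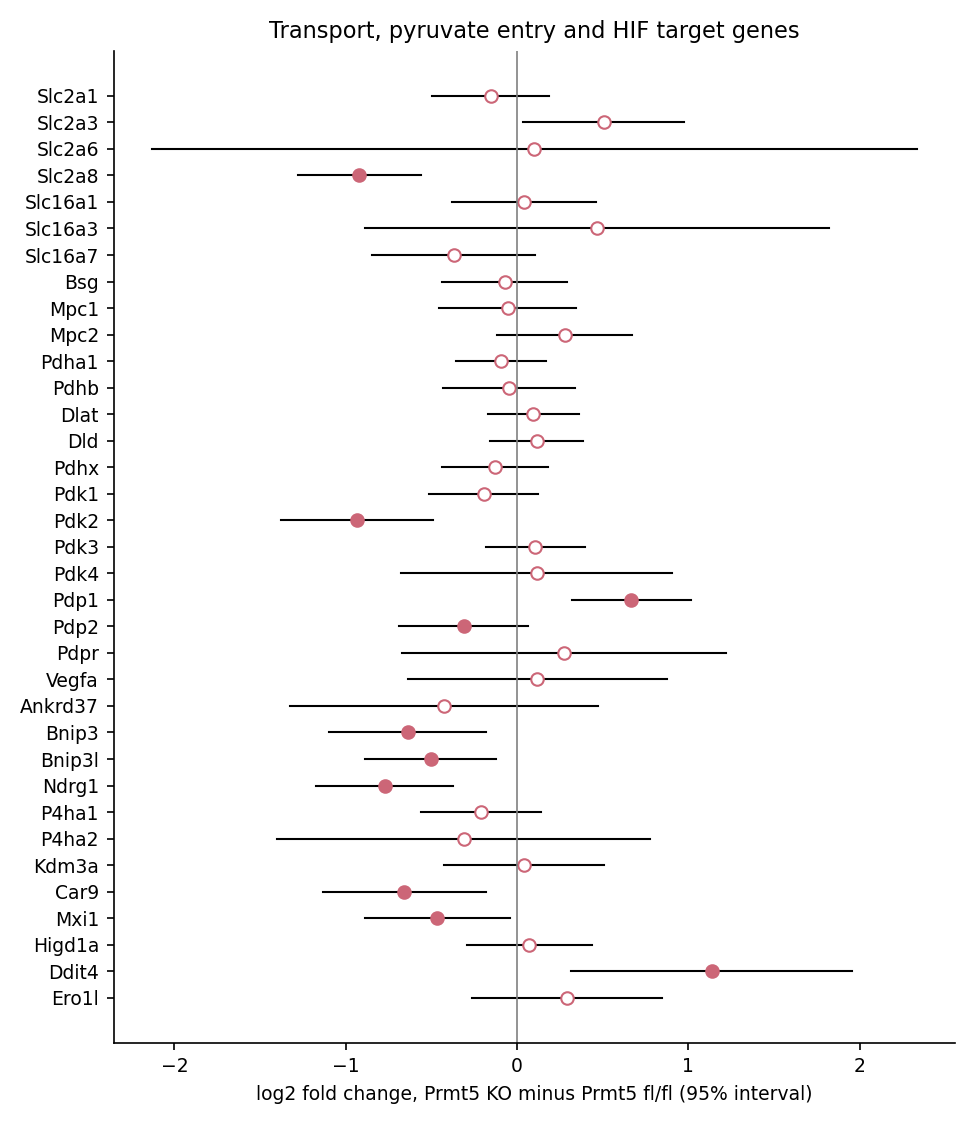
Log2 fold change, Prmt5 KO minus Prmt5 fl/fl, with 95% intervals from limma, for all tested genes of the transport, pyruvate entry and HIF target lists, from top to bottom. Filled points mark genes whose groups do not overlap: Pdp1 and Ddit4 lie above 0, and Slc2a8, Pdk2, Pdp2, Bnip3, Bnip3l, Ndrg1, Car9 and Mxi1 below.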

How the data were processed

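RNA-seq of sorted hematopoietic stem cells was analysed in 6 libraries, 3 per genotype. Per the labels' protocols, RNA was extracted with Trizol, and libraries were made with the SMART-Seq v4 and Nextera XT kits, which do not mark strand. STAR, featureCounts and mm10 are named in the submitters' processing notes, with versions and gene annotation not given in the sources used here. A single table was deposited, with gene symbols, a gene length and 6 columns of values. Raw counts were deposited for Prmt5 fl/fl replicate 2. For the remaining 5 libraries the authors deposited a scaled signal, which is the counts multiplied to a common total of 44704636. Undoing this gave whole reads for 100% of values within a tolerance of 1e-06.

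A filter kept genes whose mean was 10 or more scaled counts (14113 of 24110). Values were taken as log2(value + 1), which understates changes of low genes. Genotypes were compared with limma 3.58.1 (R 4.3.3; mean-variance trend, two-sided, Benjamini-Hochberg adjustment over all genes tested, threshold 0.05), first tested on simulated data. As most columns were deposited as scaled values, a test on log values was chosen as the main one, although whole reads could be recovered. The alternatives were edgeR 4.0.16 and DESeq2 1.42.0 on the recovered reads, other pseudocounts, filters and scalings, a replicate block and leaving out each library. Replicates are separate pools of animals, and the spread between the 3 pools, not read depth, limits the precision. Coordinates came from GENCODE M21 and promoters from RefSeq. Python 3.11.15 with matplotlib 3.10.9 drew the plots.

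The named genes are Prmt5, the 10 enzymes, the other glycolysis genes detected, up to 3 genes of smallest p in each further list, near-identical copies, and the 5 genes of most similar pattern outside the lists. A few genes under this rule are not reported here. The members and lists were chosen with earlier results of these data known. Tigar and Ero1a were matched through synonyms, and Pgam1-ps1 and Pgk1-rps7 were not matched. The proteins of these genes were not analysed here.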

Additional observations from a re-analysis of the deposited data

How the results depend on the processing

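Limma called 103 genes of the table. Other settings called 57 (median-of-ratios size factors), 64 (quantile normalization), 60 (edgeR), 981 (DESeq2), 470 (length trend removed) and 0 (without the 2 libraries richest in myeloid markers, with 1484 at an unadjusted p below 0.05). Leaving out 1 library gave 3 (without Prmt5 KO replicate 1 or 3) to 377 calls (without Prmt5 fl/fl replicate 3); the cause of these differences was not tested beyond the smaller number of samples. Of the 10 enzymes, 3 were called by DESeq2 and 2 with the length trend removed, and 0 by limma in each other setting. The median log2 fold change of the members was 0.30 with the length trend removed, 0.24 with size factors and with DESeq2, 0.22 with edgeR, and between 0.088 and 0.21 with the other settings; the summed level of the 10 enzymes differed by 0.25 on the log2 scale with size factors. The share of Hk2 differed by 2.99 percentage points without division by length.

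With the replicate number as a block, limma called 1 gene and 0 of the 10 enzymes. At an unadjusted p below 0.05 there were 3 of the 10 enzymes, against 1981 of the 14113 genes tested. The limma adjusted p of Prmt5 was 0.0618 with the block and 0.0990 without the 2 myeloid-rich libraries. Same-numbered libraries share a title prefix whose meaning the labels do not give, and the numbers were not taken as a pairing. The deviations of same-numbered libraries from the group means correlated at -0.14, 0.067 and -0.26. With 3 libraries per group these values cannot show whether a pairing exists.

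Signs reversed for the following genes, none of them called. With size factors Aldoa was at 0.026 and Pfkp at 0.061. Quantile normalization put Eno3 at 0.0024 and Aldoart1 at 0.031. With edgeR Pfkp was at 0.037, and with DESeq2 Aldoa was at 0.022, Pfkp at 0.061 and Aldoart1 at 6.59e-05. Without the 2 myeloid-rich libraries Pfkl was at 0.022, Pfkp at 0.027 and Aldoart2 at -0.16. With the length trend removed Aldoa was at 0.14, Eno1 at 0.010, Tpi1 at 0.12, Eno3 at 0.12 and Aldoart1 at 0.061. Leaving out 1 library gave ranges of -0.12 to 0.032 for Aldoa, -0.070 to 0.0038 for Pfkp, -0.25 to 0.070 for Eno3, -0.36 to 0.016 for Aldoart1, -0.018 to 0.11 for Pfkm, -0.17 to 0.020 for Tpi1, -0.068 to 0.17 for Aldoart2, -0.25 to 0.012 for Hk1 and -0.35 to 0.082 for Eno1.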

Other observations

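Several genes around glycolysis were highest in Prmt5 KO replicate 3, the library with the highest sum of granulocyte and monocyte markers. Pfkfb4, which makes an activator of phosphofructokinase, was at 1989 scaled counts there and at 549 and 570 in the other KO libraries. Slc16a3, a lactate exporter, was at 1602 there against 486 and 435. Adpgk, which phosphorylates glucose with ADP, was at 5645 against 2327 and 2082, and G6pdx, the first enzyme of the pentose phosphate pathway, at 7046 against 3756 and 3638. In the fl/fl group the same 4 genes were highest in replicate 1, at 889, 829, 4503 and 5351, the fl/fl library with the most such markers. These genes were chosen after their values were seen, and none was called by limma, edgeR or DESeq2. The part of other cells in them was not tested.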
